A study of Mus musculus with 28 samples.

Results

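Dividing stromal fibroblasts are the cells of the ovarian stroma that carried the transcripts of both a matrix-producing fibroblast and a cell in division. They were selected on measured values in 4 single-cell libraries. A member had at least 1000 detected genes, at most 20% mitochondrial UMIs (unique molecular identifiers, 1 per captured transcript), at least 0.4% of its UMIs in the 5 stromal genes *Dcn*, *Col1a1*, *Col1a2*, *Col3a1* and *Mfap4*, and a detected *Pdgfra*. It detected fewer than 3 of the 5 smooth muscle genes *Myh11*, *Cnn1*, *Actg2*, *Lmod1* and *Synpo2*, fewer than 2 of the 4 theca-side genes *Sct*, *Hhip*, *Smoc2* and *Vegfd*, and at least 4 of the 6 proliferation genes *Top2a*, *Mki67*, *Cdk1*, *Ube2c*, *Birc5* and *Cenpf*. In all, 2582 cells met the rule, out of 14301 stromal fibroblasts defined by the same limits without the proliferation genes and 38274 cells that passed the gene and mitochondrial limits. The series profiled the ovaries of one-week-old female mice 6 h after whole-body ionizing radiation (IR) of 0.5 Gy or after sham treatment. The animals were wild-type C57BL/6J females or *Chek2*-/- females carrying the *Chek2*tm1b(EUCOMM)Hmgu allele, a knockout allele of the checkpoint kinase CHEK2 carried by every cell of the animal. Each single-cell library pooled dissociated ovaries of 4 females, and there was 1 library per condition. Bulk RNA-seq of whole ovaries was made from 6 females per condition, 24 libraries in all.

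Fibroblasts of the ovarian stroma lay down collagen around follicles, and the postnatal ovary grows partly through their division. Genes of DNA replication are switched on by E2F factors late in G1, and genes of G2 and mitosis by B-MYB and FOXM1, which reach CHR elements through the MuvB complex, together with NF-Y at CCAAT boxes, while the DREAM complex represses both sets in resting cells. After a DNA break, ATM activates CHEK2, which phosphorylates p53, and p53 induces genes such as *Cdkn1a*, whose product p21 inhibits cyclin-dependent kinases and stops the cycle.

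The promoters of 4 genes on which the results turn are shown because they carry the motifs of these regulators. The 250 bases before the annotated start site are written 5′ to 3′ on the strand of the gene, from the RefSeq annotation of GRCm38.p6. *Ube2c* (chr2:164769679-164769928, + strand) and *Top2a* (chr11:99024190-99024439, − strand) belong to the selection rule, *Pclaf* (chr9:65890073-65890322, + strand) is a marker of the cells, and *Cdkn1a* (chr17:29090729-29090978, + strand) is the p53 target with the largest wild-type ratio after IR among genes with at least 200 UMIs. Capitals mark the CHR element (TTTGAA on either strand) and the CCAAT box (CCAAT on either strand) in the first 3 sequences, and a p53 response element in *Cdkn1a*.
Ube2c: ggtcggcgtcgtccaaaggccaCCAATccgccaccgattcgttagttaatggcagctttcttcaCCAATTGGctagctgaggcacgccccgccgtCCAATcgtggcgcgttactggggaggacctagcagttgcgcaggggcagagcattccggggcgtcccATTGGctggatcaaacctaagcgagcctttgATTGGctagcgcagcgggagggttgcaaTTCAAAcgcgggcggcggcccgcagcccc
Top2a: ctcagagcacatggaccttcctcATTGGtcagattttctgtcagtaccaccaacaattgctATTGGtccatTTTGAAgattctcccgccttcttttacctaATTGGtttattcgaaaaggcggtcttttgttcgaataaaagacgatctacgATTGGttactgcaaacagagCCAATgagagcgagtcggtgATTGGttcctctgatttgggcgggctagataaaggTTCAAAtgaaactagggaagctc
Pclaf: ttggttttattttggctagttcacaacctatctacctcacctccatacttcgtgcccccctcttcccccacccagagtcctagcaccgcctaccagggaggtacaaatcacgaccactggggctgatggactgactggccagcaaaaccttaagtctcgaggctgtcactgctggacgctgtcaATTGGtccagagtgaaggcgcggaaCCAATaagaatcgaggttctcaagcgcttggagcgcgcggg
Cdkn1a: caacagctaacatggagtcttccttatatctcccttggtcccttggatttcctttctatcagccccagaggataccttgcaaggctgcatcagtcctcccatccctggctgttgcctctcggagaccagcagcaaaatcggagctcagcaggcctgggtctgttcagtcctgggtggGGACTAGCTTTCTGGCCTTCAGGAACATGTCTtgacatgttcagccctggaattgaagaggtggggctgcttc
The *Ube2c* sequence held 1 CHR element, beginning 29 bases before the start site, and 6 CCAAT boxes, 2 of which overlapped on opposite strands. The *Top2a* sequence held 2 CHR elements, beginning 179 and 23 bases before the start, and 6 CCAAT boxes. In *Pclaf* there were 2 CCAAT boxes and no CHR element in the 250 bases, and an E2F-type motif lay across the start site, beginning 4 bases before it. This motif was searched on both strands as TTTCGCG, as its variant TTTGGCG and as a further variant that read TTTCCCG. The p53 response element of *Cdkn1a* began 73 bases before the start of this transcript, which is 1 of 2 annotated start windows. This window was shown because it holds the element, and the other window had no match.

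Over windows of 250 bases before and 50 bases after the start, the CHR element was present in 28 of the 41 G2 and mitosis genes that matched the promoter table and in 4 of 33 G1/S and replication genes, against 20.2% of all 27025 genes. The CCAAT box was present in 33 of the 41 G2 and mitosis genes and in 18 of the 33 G1/S genes, against 41.1% of all genes. The E2F-type motif showed the other order, with 5 of 41 and 18 of 33 against 6.38% of all genes. The p53 response element was found in 1 of 32 matched p53 targets and in 0.0740% of all genes. A match describes the letters in this window only.

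The label was set beside the marker genes before any comparison. *Top2a* (topoisomerase II alpha, which untangles replicated chromosomes) was at 929, 879, 824 and 884 CPM in wild-type non-irradiated, wild-type IR, *Chek2*-/- non-irradiated and *Chek2*-/- IR members, the order used for the 4 libraries throughout. In the single-cell data CPM are the UMIs of a gene summed over the cells and scaled by all UMIs of those cells. *Pdgfra*, the receptor for platelet-derived growth factor and a fibroblast marker, was at 301, 241, 242 and 231 CPM. Both belong to the rule and say only that it was applied. *Pclaf*, which encodes a partner of the replication clamp PCNA and was not used by the rule, was at 697, 695, 698 and 623 CPM in members and between 7.01 and 11.0 in non-dividing stromal fibroblasts, the 4330 stromal fibroblasts of the same libraries that detected none of the 6 proliferation genes. *Cdkn2c*, which encodes the CDK4 and CDK6 inhibitor p18, was at 165, 161, 155 and 145 in members against 11.6 to 13.6. *Mxd3*, a MAX partner of the MYC network that peaks in dividing cells, was at 157, 154, 153 and 136 in members against 1.27 to 2.04. For *Pclaf*, *Cdkn2c* and *Mxd3* this contrast with non-dividing fibroblasts is the one on which members were chosen. The values therefore describe the members and are not an independent check. All 5 markers were detected in every library.

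At the edge of the rule, cells with exactly 4 proliferation genes (133, 133, 92 and 110 cells) held 200.5, 170.0, 150.9 and 204.4 *Top2a* CPM. Stromal fibroblasts with exactly 3 (249, 212, 159 and 172 cells) held 80.7, 84.2, 84.4 and 67.1. *Top2a* is counted by the limit itself, so these values describe the edge and check nothing. *Mxd3* was at 26.8, 26.6, 29.8 and 24.6 just inside and 5.46, 8.92, 6.38 and 9.07 just outside.

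Members had median depths of 18342, 17731, 18632 and 18462 UMIs, and non-dividing fibroblasts 9697, 10241, 10234 and 10065. Library totals lay between 182774110 and 209716655 UMIs. Between 30 and 73 cell barcodes were shared by each pair of libraries, and none was a member in both. Scrublet called 59, 82, 42 and 46 members doublets, or 8.48% to 9.39%, and 1.74% to 2.17% of non-dividing fibroblasts. At least 2 of 6 granulosa markers were detected in 393, 499, 316 and 336 members, and at least 3 of 7 oocyte markers in 90, 21, 9 and 25. The granulosa markers summed in members to 500, 488, 620 and 565 CPM, against 2990 to 3743 in dividing granulosa cells. In non-dividing fibroblasts the same markers summed to less, at 382, 341, 443 and 462 CPM. Of the 6 markers, 5 had a log2 ratio of members over non-dividing fibroblasts above 0, with a list median of 1.405. At least 2-fold higher levels in all 4 libraries were found for 2 of them. Granulosa cells are the somatic cells of the follicle, and their RNA in members was not separated into free RNA, doublets or expression.

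Compared with non-dividing fibroblasts, members had higher levels of cell cycle genes. In every library at least 2-fold higher levels were found for 636 genes, 5.02% of the 12666 examined, and at least 2-fold lower levels for 93 genes, or 0.734%. This contrast is the one on which the cells were chosen, so the values are a description without a test. Of 50 G2 and mitosis genes, 50 were at least 2-fold higher in all 4 libraries, with a median log2 ratio of 5.59 beside −0.02 over all genes. Of 42 G1/S and replication genes, 39 were higher, with a median of 2.15. Of 40 genes of the DNA break response and repair, 27 were higher, with a median of 1.898. The 40 p53 targets had a median of −0.03 with only *Gtse1* past the limit, and 19 immediate early and stress genes a median of −0.31 with 1 past it.

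Ranked by their lowest ratio in any library, the 12 highest genes included several of the mitotic spindle and its midzone, a histone gene and a transcription factor. *Hmmr*, a spindle-assembly protein, had 101, 118, 135 and 114 times the level of non-dividing cells in the 4 libraries. *Pimreg* ranged from 86.2-fold to 110-fold, *Kif23*, a kinesin needed for cytokinesis, from 78.9-fold to 100-fold, and *Prc1*, which bundles midzone microtubules, from 72.0-fold to 99.6-fold. *Hist1h2ap*, a replication-dependent histone H2A gene, lay between 95.4-fold and 358-fold. *Mxd3* (74.2-fold to 117-fold) was the transcription factor among the 12. *Ccnb1*, the mitotic cyclin, ranged from 69.2-fold to 83.4-fold.

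Regulators of the cycle were not raised as a block. Of 24 E2F, DREAM and MYC-MAX regulators, 13 were at least 2-fold higher in every library and none was lower, with a median log2 ratio of 1.48. The repressive E2F genes *E2f7* (43.6-fold to 149-fold) and *E2f8* (39.2-fold to 82.1-fold) and the mitotic activator *Foxm1* (17.6-fold to 35.3-fold) were among them, whereas *E2f1* was 3.20-fold to 3.94-fold higher. *Mxd4*, a relative of *Mxd3* associated with resting cells, was at 0.450 to 0.508 of the non-dividing level. Of 12 cyclin-dependent kinase inhibitors and D cyclins, 4 were higher: *Cdkn2c* (11.2-fold to 13.9-fold), *Cdkn2d* (6.12-fold to 8.12-fold), *Cdkn2a* (3.30-fold to 9.06-fold) and *Ccnd1* (2.40-fold to 4.36-fold). The other D cyclins were at 0.572 to 0.685 for *Ccnd2* and 0.657 to 0.768 for *Ccnd3*.

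The fibroblast program remained present at a lower share of the transcripts. Among 30 collagen and matrix genes, 3 had a median ratio above 0 on the log2 scale, the list median was −0.39, and *Ogn*, an osteoglycin proteoglycan, lay past the 2-fold limit in all libraries at 0.170 to 0.226 of the non-dividing level. *Mgp*, an inhibitor of calcification, was at 0.507 to 0.556, and *Vcan*, a large proteoglycan, at 1.54 to 2.09. The 25 genes of stromal identity and growth factor receptors had a median of −0.22 with none past the limit in either direction. *Tcf21*, a transcription factor of ovarian mesenchyme, was at 0.552 to 0.613. Besides *Ogn*, the lowest ratios included *Tcp11l2* (0.144 to 0.167), the aldehyde oxidase gene *Aox3* (0.177 to 0.244), the BH3-only gene *Bmf* (0.231 to 0.286) and *Rarg*, a retinoic acid receptor (0.237 to 0.344). Of 8 genes of a *Fmo2*, *Clec3b* and *Dlk1* stroma, 2 lay past the limit downward, *Fmo2* at 0.296 to 0.386 and *Clec3b* at 0.346 to 0.396, with a list median of −0.72.

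**Figure D1:**
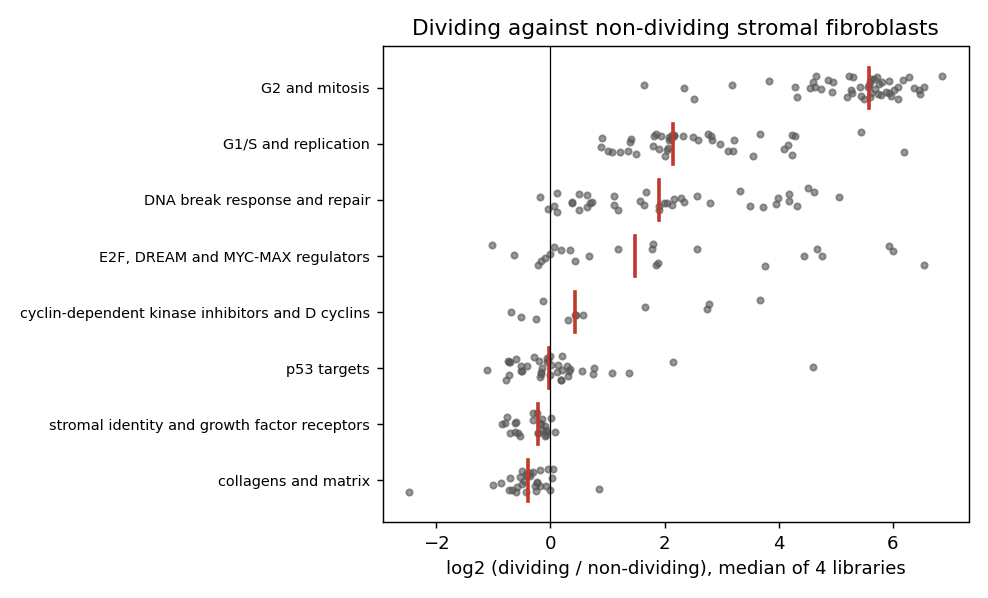
Log2 ratio of dividing over non-dividing stromal fibroblasts (median of 4 libraries, x axis) for the members of 8 gene lists (rows). Each point is 1 gene and the red line is the list median, which falls from 5.59 for G2 and mitosis genes to −0.39 for collagens and matrix.

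The share of stromal fibroblasts that were dividing was higher in the irradiated library of either genotype. It was 16.7% (696 of 4170 cells, exact 95% interval 15.6% to 17.9%) in wild-type non-irradiated ovaries and 21.6% (873 of 4038, 20.4% to 22.9%) after IR. For *Chek2*-/- ovaries it was 14.9% (484 of 3239, 13.7% to 16.2%) without and 18.5% (529 of 2854, 17.1% to 20.01%) with IR. In neither genotype did the interval with IR overlap the one without. These Clopper-Pearson intervals, like all intervals for the single-cell data here, cover counting error only, and with 1 library per condition the difference between conditions could not be tested and cannot be told apart from a difference between libraries.

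The order of the libraries was the same under other limits. For 1 of them, cells with at least 5000 UMIs were thinned to 5000, cells with fewer were left out, and the limits on named genes were read again. Among the resulting 3730, 3282, 2767 and 2502 stromal fibroblasts the shares were 12.9%, 17.5%, 11.7% and 16.1%. Without cells that detected at least 2 granulosa markers they were 12.9%, 16.5%, 10.6% and 14.6%, and without called doublets 15.9%, 20.7%, 14.3% and 17.6%. IR stood above non-irradiated in both genotypes under all 7 alternatives. Of these, 1 could not change the order, since leaving out cells over 50% ribosomal UMIs removed no stromal fibroblast. With a stromal sum of at least 0.8% the *Chek2*-/- intervals overlapped (9.68% to 12.1% without and 11.6% to 14.5% with IR). Bulk ovaries, where no change with IR was called for any of the 6 proliferation genes, cover all dividing cells of the ovary and not these alone.

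**Figure D2:**
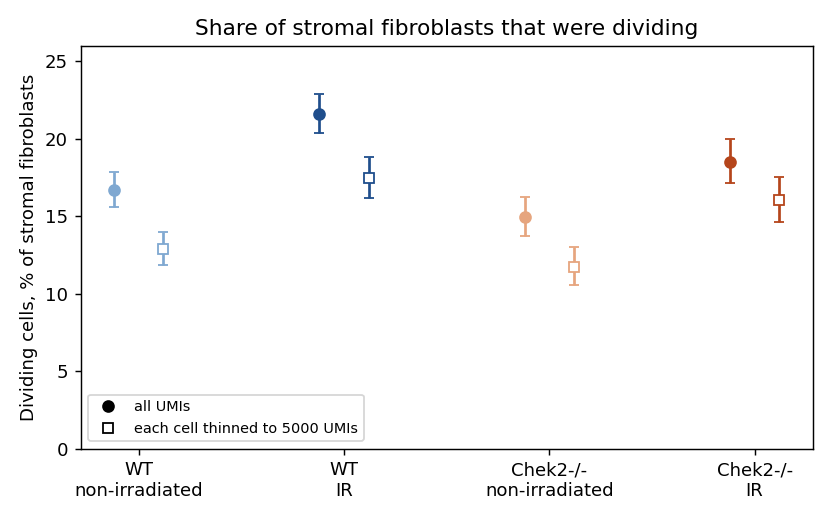
Dividing cells as a percent of stromal fibroblasts (y axis) in each of the 4 single-cell libraries, with exact 95% intervals for counting error. Filled circles use all UMIs (16.7%, 21.6%, 14.9% and 18.5%) and open squares use cells thinned to 5000 UMIs, and in both the irradiated library stands above its non-irradiated counterpart.

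Within the cycle, members spread from replication to mitosis in every library. For each cell the UMIs of the G2 and mitosis list were divided by those of that list and the G1/S list together. The median of this fraction was 0.670, 0.709, 0.642 and 0.662. Ranges of the fraction, set after its values were seen, placed 33.9%, 28.8%, 35.3% and 35.5% of members below 0.5 and 42.1%, 46.2%, 38.8% and 42.5% at 0.75 or above. The exact intervals of the irradiated and non-irradiated libraries overlapped for both shares in both genotypes. Between 44 and 101 cells of a library lay within 0.05 of either limit. *Cdkn2c* was lowest below 0.5, at 57.6 to 59.3 CPM, and highest at 0.75 and above, at 212 to 258. *Pclaf* was higher below 0.5, at 855 to 982, than at 0.75 and above, at 299 to 397. It belongs to the G1/S list, so its own UMIs enter the fraction and favour this direction. Its values describe the ranges and check nothing.

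Transcript levels of the cycle genes themselves stayed close between irradiated and non-irradiated members. None of the 42 G1/S genes and none of the 50 G2 and mitosis genes reached a 1.5-fold ratio in either genotype. Their median log2 ratios were −0.02 and 0.04 in wild-type and −0.10 and 0.04 in *Chek2*-/- members, beside 0.01 over all genes. A ratio above 1 was found for 5 of the 42 G1/S genes in *Chek2*-/- members. Neither list holds a proliferation gene of the rule, but both stood higher in members than in non-dividing fibroblasts. Every member had to detect at least 4 of the 6 proliferation genes, so the selection limits how far these levels could differ. *Cdkn2c* had ratios of 0.976 and 0.933 and *Mxd3* of 0.981 and 0.890.

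In wild-type members, the genes that stood higher after IR were led by p53 targets. Among genes with at least 100 UMIs in both libraries together, 126 were at least 1.5-fold higher after IR, 1.14% of the 11010 examined, and 82 were at least 1.5-fold lower, or 0.745%. Of the 40 p53 targets, 36 had enough UMIs, 21 of these were past the fold upward and none downward. A gene can pass the UMI limit through its irradiated library alone, so the count is a description. The median over all 40 targets was 0.92 on the log2 scale, and 36 of 40 were above 0.

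*Cdkn1a* had the highest ratio of any gene with at least 200 UMIs. It went from 72 UMIs (5.13 CPM) to 1458 UMIs (85.4 CPM), a ratio of 16.5 (95% interval 13.1 to 21.4), and was detected in 7.76% of non-irradiated and 40.4% of irradiated members. *Dcxr*, a carbonyl and xylulose reductase, followed with 51 and 586 UMIs and a ratio of 9.35 (7.08 to 12.8). Both intervals lie far from 1, and no single cell held more than 2.54% of the *Cdkn1a* UMIs of the irradiated library. Outside the p53 list, *Pqlc3*, a PQ-loop membrane protein gene, had 27 and 237 UMIs (7.09, 4.83 to 11.2) and *Ahnak2* 53 and 371 UMIs (5.70, 4.30 to 7.82). The p53 target *Trp53inp1*, a p53 cofactor active in stress and autophagy, had 90 and 592 UMIs (5.38, 4.32 to 6.82).

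Apoptotic and arrest genes of the p53 list stood higher side by side. *Bbc3*, which encodes the BH3-only protein PUMA, went from 4.06 to 19.7 CPM (4.81, 3.65 to 6.53), and *Bax*, the pore-forming effector, from 95.2 to 224 (2.35, 2.21 to 2.51). *Pmaip1*, which encodes NOXA and was singled out after its values were seen, had no UMI in the 696 non-irradiated members and 66 in the 873 irradiated ones. This is 18.1-fold higher when the library without a UMI is set to a floor of 3 UMIs. The gene is short of the 100 UMIs asked of other ratios, and the floor gives no counting interval. One cell held 18 of these 66 UMIs. *Ccng1*, cyclin G1, went from 14.2 to 63.8 CPM (4.49, 3.87 to 5.26). The p53 ubiquitin ligase gene *Mdm2* went from 31.1 to 50.5 (1.62, 1.45 to 1.83) and the AKT repressor gene *Phlda3* from 87.5 to 161 (1.84, 1.72 to 1.97). *Exoc4*, a subunit of the exocyst, went from 48.1 to 111 (2.30, 2.11 to 2.52), and the receptor gene *Eda2r* from 6.56 to 10.8 (1.65, 1.28 to 2.14). The *Eda2r* ratio, 0.72 on the log2 scale, was short of the fold after thinning (0.53) and with at least 5 proliferation genes (0.56). *Btg2*, an antiproliferative gene, was at 658 and 907, a ratio of 1.38 (1.34 to 1.41) that did not reach the fold. *Trp53* itself had a ratio of 1.07 (1.01 to 1.14).

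The p53 targets were less far from 1 in *Chek2*-/- members but leaned the same way. The *Chek2* transcript was at 16.0, 16.6, 8.28 and 5.49 CPM in members, and 3′ tags that remain in a deleted gene check the genotype only in part. Here 117 genes were at least 1.5-fold higher after IR, 1.14% of 10304, and 58 at least 1.5-fold lower, or 0.563%. Of the 40 p53 targets, 31 had enough UMIs, 8 were past the fold upward and none downward, and the median over all 40 was 0.34 with 30 above 0. These 8 were *Cdkn1a*, *Dcxr*, *Trp53inp1*, *Ccng1*, *Bbc3*, *Btg2*, *Plk2* and *Sesn2*.

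*Cdkn1a* in *Chek2*-/- members went from 70 UMIs (7.07 CPM) to 198 UMIs (18.4 CPM), a ratio of 2.60 (1.98 to 3.48), and from 9.71% to 17.0% of cells with a UMI. One cell held 29 of the 198 UMIs. *Dcxr* went from 27 to 90 UMIs (3.03, 1.98 to 4.92), *Trp53inp1* from 53 to 146 (2.52, 1.84 to 3.55), *Ccng1* from 149 to 294 (1.82, 1.49 to 2.23) and *Bbc3* from 52 to 92 (1.62, 1.15 to 2.34). *Mdm2* was at 32.2 and 32.5 CPM (1.01, 0.864 to 1.18), and its interval includes 1. *Bax* (1.28, 1.18 to 1.39), *Phlda3* (1.26, 1.15 to 1.38) and *Exoc4* (1.41, 1.24 to 1.61) had intervals above 1 without reaching the fold. The intervals of the *Chek2*-/- ratios lay below those of wild-type members for *Cdkn1a*, *Dcxr*, *Ccng1*, *Trp53inp1*, *Bbc3*, *Bax*, *Mdm2*, *Phlda3* and *Exoc4*, overlapped for *Eda2r*, and lay above for *Btg2*, whose *Chek2*-/- ratio was 1.61 (1.54 to 1.68). These *Chek2*-/- values depended on the choice of cells. On the log2 scale, where the fold is at 0.58, *Ccng1* moved from 0.86 to 0.25 and *Bbc3* from 0.70 to 0.13 when members were chosen after thinning, and *Ccng1* to 0.45 with a stromal sum of at least 0.8%. *Bbc3* was also short of the fold with at least 3 (0.56) or at least 5 (0.55) proliferation genes. Without cells that detected at least 2 granulosa markers *Dcxr* moved from 1.60 to 0.55 and *Cdkn1a* from 1.38 to 0.89, while *Bbc3* moved to 1.38 and *Trp53inp1* from 1.34 to 2.01.

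**Figure D3:**
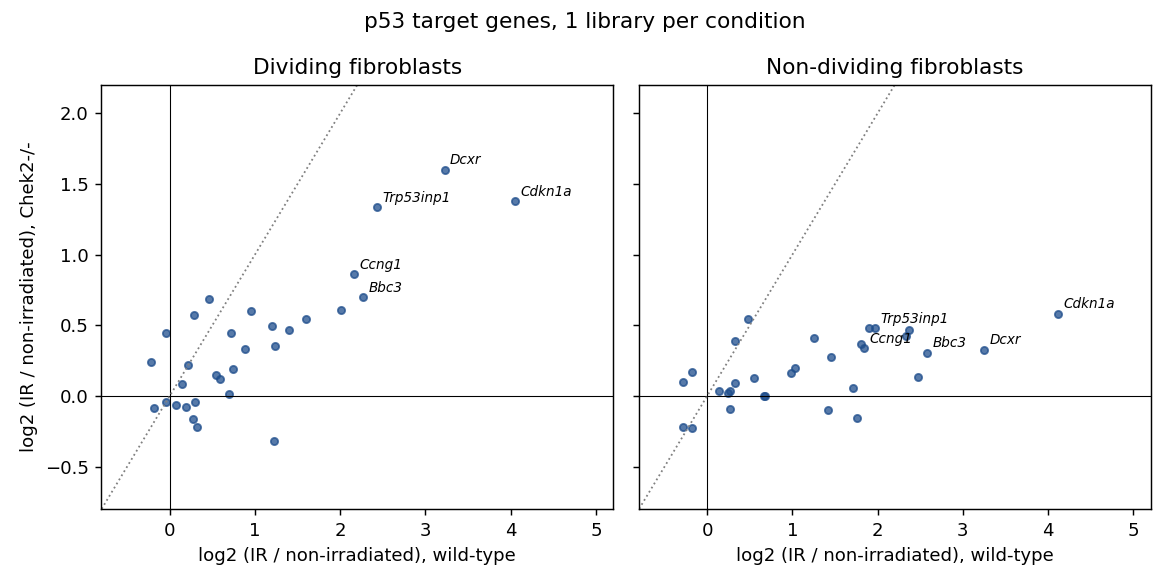
Log2 ratio of irradiated over non-irradiated cells in wild-type (x axis) and *Chek2*-/- (y axis) libraries for 31 p53 targets with enough UMIs in both genotypes, in dividing (left) and non-dividing (right) fibroblasts. The dotted line marks equal ratios. *Cdkn1a*, *Dcxr* and *Trp53inp1* reach higher *Chek2*-/- ratios among dividing cells (2.60, 3.03 and 2.52 fold) than among non-dividing cells (1.498, 1.25 and 1.395 fold).

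Set against non-dividing fibroblasts of the same libraries, members had a similar *Cdkn1a* ratio in wild-type and higher ratios of several p53 targets without CHEK2. In wild-type ovaries the *Cdkn1a* ratio was 16.5 in members and 17.3 (13.7 to 22.3) in non-dividing cells, and the median log2 ratio of the 40 p53 targets was 0.92 in members, 1.08 in fibroblasts with 1 to 3 proliferation genes and 1.34 in those with none. The medians were 0.34, 0.15 and 0.24 in *Chek2*-/- ovaries. The *Cdkn1a* level after IR in *Chek2*-/- fibroblasts was 6.20, 7.95 and 18.4 CPM in cells with none, 1 to 3 and 4 to 6 proliferation genes, and only the last differed from its neighbours beyond the counting intervals (4.65 to 8.11, 6.76 to 9.30 and 15.9 to 21.2). The *Cdkn1a* ratios themselves, 1.498 (0.997 to 2.26), 1.38 (1.08 to 1.75) and 2.60 (1.98 to 3.48), overlapped between members and non-dividing cells and not between members and cells with 1 to 3 proliferation genes. *Ccng1* was likewise highest in members after IR, at 20.5, 20.3 and 27.4. For *Dcxr* and *Trp53inp1* the larger *Chek2*-/- ratio in members came with a lower non-irradiated level, 2.73 against 7.09 CPM for *Dcxr* and 5.35 against 12.5 for *Trp53inp1*, while the irradiated levels were 8.37 against 8.89 and 13.6 against 17.4. Some wild-type ratios were smaller in members beyond the counting intervals. *Eda2r* had 1.65 (1.28 to 2.14) in members and 3.37 (2.41 to 4.89) in non-dividing cells, with a higher non-irradiated level in members (6.56 against 3.35 CPM), and *Exoc4* had 2.30 (2.11 to 2.52) and 3.502 (3.16 to 3.89).

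Dividing granulosa cells of the same libraries gave a smaller *Cdkn1a* ratio in wild-type, 5.73, and 1.41 in *Chek2*-/- cells. Their p53 target medians were 0.52 and 0.11, below those of members (0.92 and 0.34). *Eda2r* went the other way, with a wild-type ratio of 6.92 in dividing granulosa cells and 1.65 in members. Granulosa cells with 3 or more oocyte markers were left out of this comparison, a choice made after seeing the data. This kept 674 of 1071, 932 of 1084, 924 of 1028 and 1263 of 1536 cells in the 4 libraries, which are unequal parts. Granulosa values without this limit are not given here. Among members, *Cdkn1a* after IR was found in every range of the G2 and mitosis fraction, below 0.5, from 0.5 to 0.75, and above. Wild-type cells had 71.5 (64.6 to 78.9), 89.8 (81.0 to 99.3) and 93.2 (86.4 to 100.5) CPM in these ranges. The interval below 0.5 lay under the others. Without IR the wild-type levels ran the other way, at 8.06, 5.22 and 2.49. The *Chek2*-/- members gave 10.3 (7.45 to 14.0), 34.5 (27.5 to 42.8) and 17.2 (13.5 to 21.5), and the part of the single cell with 29 UMIs in this order was not tested. Without IR it was 11.1, 4.97 and 4.11 in *Chek2*-/- members.

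**Figure D4:**
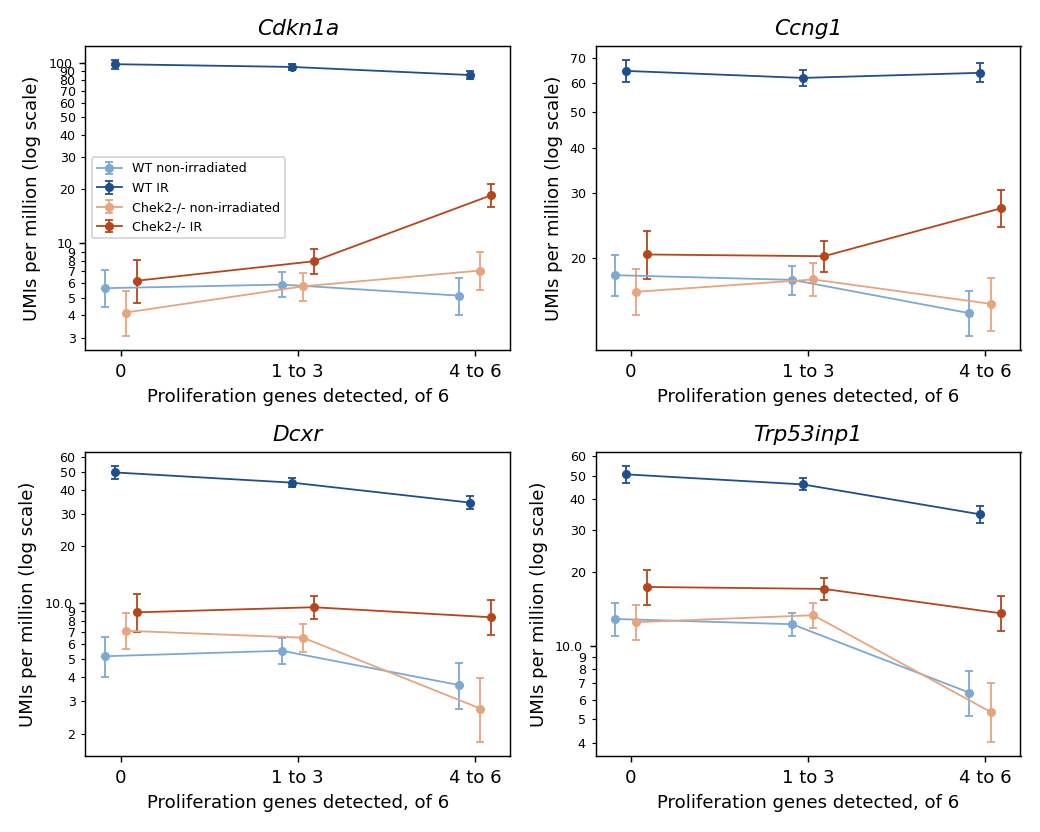
CPM (log scale, y axis) of 4 p53 targets in stromal fibroblasts that detected 0, 1 to 3 or 4 to 6 of the proliferation genes (x axis), with 1 line per library and exact 95% intervals for counting error. In irradiated *Chek2*-/- cells *Cdkn1a* reaches 18.4 among dividing cells against 6.20 and 7.95 in the other ranges, and in wild-type irradiated cells it lies between 85.4 and 98.0.

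For 3 cycle-linked genes, singled out after their values were seen, the wild-type ratio with IR was higher in non-dividing cells than in members beyond the counting intervals. *Psrc1*, a spindle protein gene known as a p53 target, went from 65.1 to 78.2 CPM in members (1.20, 1.10 to 1.31) and from 1.68 to 16.0 in non-dividing fibroblasts (9.33, 6.11 to 15.5). *Ckap2*, a microtubule-stabilizing gene, had ratios of 1.49 (1.41 to 1.57) and 4.26 (2.94 to 6.47), and *Gtse1*, a p53-binding G2 gene, of 1.23 (1.05 to 1.45) and 5.15 (2.10 to 18.5). Non-dividing *Chek2*-/- cells gave ratios of 1.44, 0.995 and 1.39, each with an interval that includes 1. Levels after IR in non-dividing wild-type cells stayed below those of members for all 3. The whole list of 50 G2 and mitosis genes, which holds *Psrc1* and *Ckap2*, summed to 558 and 577 CPM in non-dividing wild-type cells without and with IR, with a median log2 ratio of −0.04.

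Besides *Pqlc3* and *Ahnak2*, the high wild-type ratios outside the p53 list included interferon-related genes. *Cxcl10*, a chemokine induced by interferon, had 32 and 290 UMIs (7.34, 5.16 to 11.1) and *Isg15*, a ubiquitin-like modifier, 26 and 219 (6.80, 4.596 to 10.8). Of 20 interferon-stimulated genes 16 had enough UMIs, 5 were past the fold upward and none downward, and the median over all 20 was 0.54. One cell held 82 of the 219 *Isg15* UMIs, and without cells that detected 2 granulosa markers its log2 ratio was 0.47. Leaving out the cell with the most UMIs in each library, a choice made after seeing the data, gave ratios of 4.81 for *Isg15* and 10.8 for *Cxcl10*. On the log2 scale *Cxcl10*, at 2.88, was at 1.24 without cells that detected 2 granulosa markers and at 3.94 when members were chosen after thinning, and *Isg15*, at 2.77, was at 0.74 with a stromal sum of at least 0.8%. In dividing granulosa cells *Isg15* and *Cxcl10* had ratios of 14.5 and 7.24. The interferon list had a median of 1.64 in those cells. The 6 macrophage markers summed to 231 UMIs in irradiated wild-type members and to 17, 15 and 20 in the other libraries, with 1 of the 6 at 0 in 2 of the libraries. The 6 epithelial markers, none of them at 0, summed to 38.6, 56.9, 37.6 and 21.3 CPM in members, and in wild-type ovaries to 15.4 without and 57.4 with IR in non-dividing fibroblasts and to 268 and 501 in dividing granulosa cells. The part of either list in these ratios was not tested. Without CHEK2, 2 of 11 interferon genes with enough UMIs were past the fold in members, with *Cxcl10* at 1.81 (1.34 to 2.47), and the median over all 20 was 0.16. On the log2 scale this *Cxcl10* ratio, 0.86, turned to −1.10 when members were chosen after thinning and was at 4.28 without cells with 2 granulosa markers.

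The 8 lowest wild-type ratios included genes that were also below 1 in the other cell types. *Hist1h2ap* was at 527, 218, 139 and 62.8 CPM across the 4 libraries, a ratio of 0.413 in wild-type and 0.451 in *Chek2*-/- members. Dividing granulosa cells gave 0.417 and 0.570 for the same gene, and wild-type non-dividing fibroblasts 0.287. *Ebf1*, a transcription factor of stromal and perivascular cells, had a ratio of 0.433 (0.340 to 0.548) in members, 0.499 in non-dividing cells and 0.396 in dividing granulosa cells. The predicted gene *Gm11361* (0.466) and *Sytl2*, a vesicle trafficking gene (0.547), were also among the 8 lowest, with the globin gene *Hbb-bt* (0.250, with 815 of its 1280 non-irradiated UMIs in 1 cell, and a log2 ratio of 1.57 without cells with 2 granulosa markers) and the oocyte gene *Dppa3* (0.483). Non-dividing fibroblasts and dividing granulosa cells, in this order, gave 0.545 and 0.765 for *Gm11361* and 0.639 and 0.897 (0.718 to 1.12) for *Sytl2*. They gave 0.449 and 0.789 for *Hbb-bt*, and 0.299 and 0.455 for *Dppa3*.

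The *Chek2*-/- extremes included transcripts of other cell types. The highest ratios were those of the globin genes *Hbb-bt* (4.92), *Hba-a1* (4.56) and *Hba-a2* (4.51), then of *Gm12840* (3.64, and 2.76 in non-dividing cells) and of the globin gene *Hbb-bs* (3.55). In the irradiated library the cell with the most UMIs of a gene held 2224 of the 2797 *Hbb-bt* UMIs, 1816 of the 2649 *Hba-a1* UMIs and 5609 of the 9865 *Hbb-bs* UMIs. The globin directions turned under other choices of cells. Without cells that detected 2 granulosa markers the log2 ratios were −0.33 for *Hba-a1*, −0.34 for *Hba-a2*, −0.22 for *Hbb-bs* and 0.11 for *Hbb-bt*, and with a stromal sum of at least 0.8% *Hbb-bt* was at −0.22. Further, the 6 erythroid markers summed to 623, 351, 410 and 1623 CPM. *Ooep*, a gene of the oocyte, had a ratio of 2.90 in members and 2.40 in non-dividing cells, and the 7 oocyte markers summed to 93.0, 62.9, 27.9 and 68.1. Neither list had a gene at 0 in members, and their part in other ratios was not tested. In wild-type members, 3 oocyte and 2 erythroid markers were past the fold downward, and in *Chek2*-/- members 3 and 4 were past it upward. Of 6 epithelial markers, 2 were past it upward in wild-type and 2 downward in *Chek2*-/- members, and of the endothelial, pericyte, theca-side and smooth muscle genes at most 2 of any list in either genotype.

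Immediate early and heat shock genes were among the remaining *Chek2*-/- extremes. *Nr4a2*, an orphan nuclear receptor gene, went from 16.7 to 48.3 CPM (2.89, 2.43 to 3.48), while wild-type members had 50.6 and 56.7. *Nr4a1* was at 200.1, 219, 91.2 and 192 and *Btg2* at 658, 907, 319 and 514, so that for all 3 genes the non-irradiated *Chek2*-/- library was the lowest. *Hspa1a*, an inducible HSP70 gene, was at 8.41, 11.0, 39.1 and 14.3, a *Chek2*-/- ratio of 0.368 (0.302 to 0.443), and was high in the same non-irradiated library. Non-dividing fibroblasts gave *Chek2*-/- ratios of 4.43, 2.55, 1.46 and 0.254 for *Nr4a2*, *Nr4a1*, *Btg2* and *Hspa1a*. Of 19 immediate early and stress genes, 4 were past the fold upward in wild-type members, and 4 upward and 2 downward in *Chek2*-/- members. The other low *Chek2*-/- ratios belonged to *Hspa1b* (0.462), *Rab26os* (0.525), *Usp50* (0.544), *Gm10076* (0.560), the histone gene *Hist1h2ae* (0.571) and the keratin gene *Krt79* (0.573). Short of the fold were *Hspa1b* after thinning (−0.56 on the log2 scale), *Rab26os* without cells with 2 granulosa markers (−0.51) and *Krt79* with a stromal sum of at least 0.8% (−0.50).

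Genes of the matrix and of DNA repair showed little movement with IR. The median log2 ratio of 30 collagen and matrix genes was −0.10 in wild-type and 0.04 in *Chek2*-/- members, with 1 gene past the fold in wild-type, *Col14a1*, downward at 0.535 (0.380 to 0.744). *Col14a1* was also lower in non-dividing cells, at 0.302. Of 40 break response and repair genes, none passed the fold in wild-type members and 1 did in *Chek2*-/- members, *Chek2* itself at 0.665 (0.466 to 0.938), which was short of the fold under 6 of the alternatives, with a log2 ratio of −0.28 after thinning. *Brca1*, a mediator of homologous recombination, had ratios of 0.909 (0.808 to 1.02) and 0.857 (0.737 to 0.995).

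Bulk RNA-seq gave the replicated measure of these genes in the whole ovary, where fewer cells of a type and less RNA per cell cannot be told apart. Library totals ranged from 17824920 to 32605519 estimated counts. In the quasi-likelihood fit of edgeR, with p adjusted by the Benjamini-Hochberg method, 409 of 26790 genes rose with IR in wild-type ovaries (1.53%) and 237 fell (0.885%), the latter count being 142 without wild-type non-irradiated replicate 5 and 153 without wild-type IR replicate 2 or 3. With the replicate number as a block within each genotype, a fit added after seeing the data, these counts were 563 and 555. In *Chek2*-/- ovaries 3 genes rose (0.0112%), *Ccng1*, *Eda2r* and *Ano3*. At an unadjusted p under 0.05 there were 3059 and 1179 genes, and DESeq2 called 8 higher and 6 lower in *Chek2*-/- ovaries. Libraries of the same number deviated together in *Chek2*-/- ovaries, and with the block 9 genes rose and 1 fell there. The change differed between genotypes for 277 genes (1.03%), 186 with a larger and 91 with a smaller log2 change in wild-type, against 299 and 159 with DESeq2 and 282 and 276 with the block. The 91 became 55 without wild-type IR replicate 2, 59 without wild-type IR replicate 5, 57 without wild-type non-irradiated replicate 5 and 60 without *Chek2*-/- IR replicate 4. The p-values measure the spread between these libraries, each from 1 female.

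No change with IR was called in bulk for the rule and marker genes of the dividing fibroblasts. Other dividing cells carry the 6 proliferation genes too. In the single-cell libraries these summed to between 2513 and 2928 CPM in dividing granulosa cells, against 3113 to 3620 in members. *Top2a* ranged from 231 to 300.1 CPM (median 246) in wild-type non-irradiated ovaries, from 217 to 304 (264) after IR, from 191 to 296 (268) in *Chek2*-/- non-irradiated ovaries and from 193 to 301 (268) after IR. The 4 groups overlapped throughout, and the log2 change was 0.05 ± 0.11 (SE) in wild-type and 0.03 ± 0.11 in *Chek2*-/- ovaries. For the 6 rule genes, *Pdgfra*, *Pclaf*, *Cdkn2c* and *Mxd3*, no change was called in either genotype and no difference between genotypes. The closest was *Cdkn2c* in wild-type ovaries, from 13.8 to 17.5 CPM (median 16.1) without and 15.8 to 21.7 (18.5) with IR, at a log2 change of 0.22 ± 0.08 and an adjusted p of 0.258. Of the 42 G1/S genes none was called in wild-type ovaries, and of the 50 G2 and mitosis genes 2 rose.

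Several p53 targets of the dividing fibroblasts moved in bulk with the same order of genotypes. *Btg2* did not. Its bulk log2 change was larger in wild-type ovaries by 1.13, whereas its ratio in members was larger in *Chek2*-/- ovaries. *Cdkn1a* ranged from 21.97 to 36.6 CPM (median 25.2) in wild-type non-irradiated ovaries and from 75.5 to 104 (87.2) after IR, with no overlap, and its log2 change was 1.67 ± 0.13 (adjusted p = 2.48e-09). In *Chek2*-/- ovaries it ranged from 31.8 to 43.0 (39.7) and from 37.3 to 59.0 (48.7), the groups overlapped, and the log2 change of 0.31 ± 0.12 was not called (adjusted p = 0.999 by edgeR, and 0.262 with the block). It was higher in the irradiated library of the same number in 6 of 6 pairs. *Ccng1* ranged from 37.4 to 43.2 CPM (38.8) and from 151 to 173 (164) in wild-type, and from 39.1 to 45.3 (41.0) and from 56.2 to 65.6 (60.8) in *Chek2*-/- ovaries. Neither pair of groups overlapped, and the log2 changes were 2.03 ± 0.05 and 0.56 ± 0.05 (adjusted p = 2.61e-19 and 6.82e-07). *Eda2r* was the other list member called in *Chek2*-/- ovaries, from 14.1 to 18.4 CPM (16.0) to between 21.1 and 25.6 (23.3), at 0.53 ± 0.08 (adjusted p = 0.00427). In members, *Eda2r* had a *Chek2*-/- ratio of 1.36 with an interval of 0.948 to 1.98 that includes 1.

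Of the 40 p53 targets 27 rose in wild-type ovaries, with a median log2 change of 0.58, and 2 in *Chek2*-/- ovaries, with a median of 0.07 (with the block 4 rose there, as *Phlda3* and *Exoc4* were then called, by 0.36 and 0.32 on the log2 scale, adjusted p = 0.0231 and 0.0211), against medians of −0.00409 and 0 over all genes. The change differed between genotypes for 26 of the 40, all larger in wild-type. *Dcxr* had the largest difference among the genes described here for which one was called, with 4.84 to 6.19 CPM (5.90) and 13.6 to 22.3 (16.4) in wild-type and overlapping ranges of 5.25 to 7.65 (5.98) and 4.28 to 6.71 (5.81) in *Chek2*-/- ovaries, a difference of 1.65 ± 0.17 on the log2 scale (adjusted p = 2.01e-06). Its direction in *Chek2*-/- bulk ovaries (−0.10 ± 0.12) was not that of *Chek2*-/- members. Of the other genes with high or low wild-type ratios in members, *Pqlc3* rose with a log2 change of 1.01 in wild-type ovaries (adjusted p = 0.000294), and *Ebf1*, low in members, also rose, by 0.71 ± 0.18 (adjusted p = 0.0367). *Isg15* and *Cxcl10* were not called in bulk in either genotype, and *Isg15* ranged from 1.49 to 11.998 CPM (median 2.55) without IR and from 4.74 to 15.4 (8.80) with IR in wild-type ovaries, where the groups overlapped. *Chek2* was at 18.5 to 24.6 CPM in the 12 wild-type and 2.88 to 4.53 in the 12 *Chek2*-/- libraries, with no overlap.

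**Figure D5:**
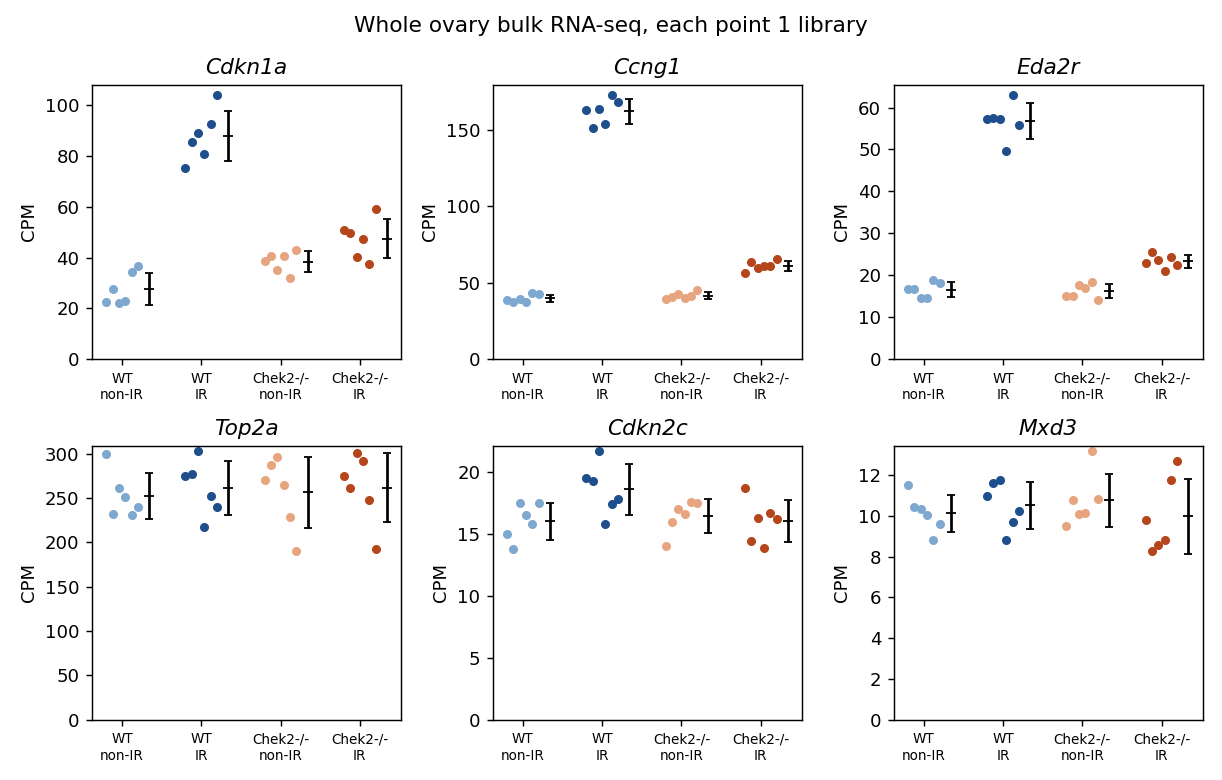
CPM (y axis, from 0) of 3 p53 targets (top) and 3 genes higher in dividing than in non-dividing fibroblasts (bottom). The 24 bulk libraries are shown, 6 per group (x axis), with the mean and SD beside the points. *Cdkn1a*, *Ccng1* and *Eda2r* separate wild-type irradiated ovaries from the other 3 groups, and *Top2a*, *Cdkn2c* and *Mxd3* overlap in all 4 groups.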

How the data were processed

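The single-cell files hold UMI counts per gene and cell that the authors made with Cell Ranger (version 4 in the methods, 3.0.2 in the deposited matrix headers) on mm10. The bulk file holds estimated counts per gene that the authors deposited from Salmon 1.3.0 in nf-core/rnaseq, with GRCm38 and Ensembl 105. Members and gene lists were chosen with earlier results of these data known. UMI counts were summed over the member cells of a library, scaled by all UMIs of those cells to CPM. Ratios were taken after adding 0.5 UMI, with exact conditional 95% intervals, for genes with at least 100 UMIs in the libraries compared. With 1 library per condition there was no test. Doublets were called with Scrublet in scanpy 1.11.5 and kept in, with the values without them computed beside. The study's own analysis removed cells that DoubletFinder and DoubletDecon both marked, and the sources do not say whether this came before deposit.

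Bulk estimated counts were rounded to whole numbers, genes with a sum of at least 10 over the 24 libraries were kept, and edgeR 4.0.16 quasi-likelihood fits over the 4 groups were the test, at an adjusted p of 0.05. DESeq2 1.42.0, the tool of the study, was an alternative. On simulated counts of the wild-type bulk comparison, 87 of 100 genes changed 2-fold and 100 of 100 changed 4-fold were called, with 5 of 26229 unchanged genes. Named genes were the genes of the rule, the markers, the 4 members with the most UMIs in each list, 12 genes of the p53 pathway, the 8 highest and lowest ratios per genotype among genes with at least 200 UMIs, and the 12 highest and lowest of dividing over non-dividing. Other list members named were chosen after their values were seen. Alternatives were other limits of the rule, thinning, left-out cells, other UMI minimums and folds, DESeq2, left-out libraries and a replicate block. Same-numbered bulk libraries deviated together in *Chek2*-/- ovaries (correlations of 0.13 to 0.84, over 0.1 in 6 of 6 pairs) and were taken as pairs there, a pairing that comes from the data and not from the labels. In wild-type ovaries 5 of 6 were over 0.1 (−0.02 to 0.55), and the numbers were used as pairs only in the fits with a replicate block. Some genes that the rule for named genes selects are not reported here.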

Additional observations from a re-analysis of the deposited data

Results flagged for a closer look

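Among 88 groups of 6 bulk libraries examined for 1 value far from the others, 10 had one, and chance gives about 1 in 20. Of the 10, 8 came from the *Chek2*-/- replicates numbered 6 and from 4 cycle genes, which are not independent. In *Chek2*-/- non-irradiated ovaries, replicate 6 was the lowest for *Cdk1* (65.8 CPM), *Ube2c* (79.3), *Birc5* (70.1) and *Cenpf* (115). In *Chek2*-/- irradiated ovaries, replicate 6 was the lowest for the same genes, *Cdk1* (71.1), *Ube2c* (93.6), *Birc5* (80.1) and *Cenpf* (124). *Pdgfra* was at 341 CPM in wild-type irradiated replicate 4, and *Mxd3* at 13.2 CPM in *Chek2*-/- non-irradiated replicate 5.

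The bulk change with IR differed between genotypes by the interaction term for 13 of 119 genes examined, and for 277 of all 26790 genes (1.03%). The 119 were named genes, among them p53 targets and the genes with the highest and lowest ratios in members. Their share therefore reflects how they were chosen. The log2 change in wild-type minus that in *Chek2*-/- ovaries was 0.48 for *Bax*, 1.44 for *Bbc3*, 1.13 for *Btg2*, 1.47 for *Ccng1*, 1.36 for *Cdkn1a*, 1.65 for *Dcxr*, 1.25 for *Eda2r*, 1.06 for *Exoc4*, 1.31 for *Mdm2*, 0.85 for *Phlda3*, 0.99 for *Pqlc3*, 0.39 for *Rps27l* and 1.04 for *Trp53inp1*.

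In dividing fibroblasts, 5 of the genes examined had ratios past the 1.5-fold limit in both genotypes and in opposite directions, a difference that was not tested. The log2 ratios in wild-type and *Chek2*-/- members were −1.05 and 1.03 for *Dppa3*, −0.79 and 1.83 for *Hbb-bs*, −2.001 and 2.30 for *Hbb-bt*, −0.72 and 0.70 for *Hhip*, and 1.37 and −1.99 for *Krt19*. Without cells with 2 granulosa markers the wild-type direction turned for *Hbb-bs* (2.50) and *Hbb-bt* (1.57) and the *Chek2*-/- direction for *Hbb-bs* (−0.22), and with a stromal sum of at least 0.8% the *Chek2*-/- direction turned for *Hbb-bt* (−0.22) and *Hhip* (−0.19). Other values were short of the 1.5-fold limit. The wild-type *Hhip* value was −0.02 after thinning, −0.22 with a stromal sum of at least 0.8% and −0.48 without the cell with the most UMIs in each library, and the *Chek2*-/- one was 0.28 to 0.54 under 4 further alternatives. *Krt19* was at 0.31 in wild-type members without called doublets and at −0.33 in *Chek2*-/- members after thinning. Wild-type *Hbb-bs* was at −0.43 with at least 5 proliferation genes, −0.39 without the cell with the most UMIs in each library and −0.09 by the mean of cells, and *Chek2*-/- *Hbb-bt* at 0.11 without cells with 2 granulosa markers. One cell held 58 of the 98 *Krt19* UMIs of wild-type non-irradiated members. All 5 mark oocytes, red cells, theca-side or surface epithelial cells.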

How the results depend on the processing

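The shares of dividing cells, in the order of the 4 libraries, were 13.5%, 18.3%, 12.1% and 14.7% with at least 5 of the 6 proliferation genes, 22.7%, 26.9%, 19.9% and 24.6% with at least 3, 12.9%, 17.5%, 11.7% and 16.1% after thinning to 5000 UMIs, 12.4%, 17.0%, 10.8% and 13.04% with a stromal sum of at least 0.8%, and 12.9%, 16.5%, 10.6% and 14.6% without cells with 2 granulosa markers. In wild-type members, the genes higher after IR numbered 222 with at least 50 UMIs, 68 with at least 200 and 39 at a fold of 2, and the lower ones 189, 33 and 15, and 127 by the mean of cells. In *Chek2*-/- members the higher ones numbered 219, 48 and 32, and 65 with a stromal sum of 0.8%. The lower ones numbered 132, 25 and 4, 91 without cells with 2 granulosa markers and 89 by the mean of cells. Among log2 ratios past the 1.5-fold limit, those that changed sign in wild-type members were *Hbb-bs* at 2.50 and *Hbb-bt* at 1.57 without cells with 2 granulosa markers, and *Kdr* at 0.23 with a stromal sum of 0.8% and 0.19 without doublets. In *Chek2*-/- members they were *Cxcl10* at −1.10 after thinning, *Hba-a1* at −0.33, *Hba-a2* at −0.34 and *Hbb-bs* at −0.22 without cells with 2 granulosa markers, and *Hbb-bt* at −0.22, *Hhip* at −0.19 and *Krt18* at 1.20 with a stromal sum of 0.8%. The cause was not tested. Of the other single-gene values, 2009 moved by less than their counting interval and 470 by more. Ratios short of the fold had another sign in 208 of their 1880 values under the alternatives. Leaving out the cell with the most UMIs of a gene and the granulosa cells with oocyte markers were choices made after seeing the data.

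In bulk, DESeq2 called 8 genes higher and 6 lower in *Chek2*-/- ovaries, and 299 higher and 159 lower for the difference between genotypes. Leaving out 1 library gave 361 to 489 higher and 142 to 340 lower in wild-type, 2 to 4 and 0 to 1 in *Chek2*-/- ovaries, and 153 to 227 and 55 to 133 for the difference. The wild-type lower count was 142 without non-irradiated replicate 5 and 153 without IR replicate 2 or 3. *Phlda3* and *Exoc4* were called in *Chek2*-/- ovaries under DESeq2, in some fits without 1 library and with the block within genotype. With 1 replicate block over all 4 groups, 416 and 245 genes were called in wild-type, 4 and 0 in *Chek2*-/- ovaries and 188 and 93 for the difference. With a replicate block within genotype, added after seeing the data, these were 563 and 555, 9 and 1, and 282 and 276, and of the 22 genes examined in every fit it changed no other call. A library correlated best with its own number in 17 of 72 cases over all groups, and 22 of 36 same-number correlations were over 0.1. The cause was not tested. Low genes limit the single-cell ratios, since a difference within the counting intervals was not detectable at this depth.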
